A study of Mus musculus with 36 samples.

Results

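The transcripts described here are 40 type I interferon stimulated genes, chosen by name from the 49568 genes of each of 2 RNA-seq count tables and all found in both. They comprise the transcription factors Irf7, Irf9 and Stat2, 5 nucleic acid sensors, 3 genes of the ISG15 system, 4 IFIT genes, 6 OAS genes, the 2 Mx GTPases, an RNA-activated kinase and an RNA editor, 2 nucleotide enzymes, the Parp9 group and 10 further effectors. They were counted in 36 libraries of RAW264.7 cells, a mouse macrophage line, 18 libraries in an IFNγ table and 18 in an IL-4 table. Of each 18, 6 libraries came from cells given PBS, 6 from cells given the 65-79*SE peptide and the cytokine (SE+IFNγ or SE+IL-4), and 6 from cells given the 65-79*PE peptide and the cytokine (PE+IFNγ or PE+IL-4). The peptides are synthetic copies of a stretch of the DRβ chain, in the form coded by HLA-DRB1 alleles tied to susceptibility to rheumatoid arthritis (SE) or to protection from it (PE), and differ in a few residues. Peptide was given at 100 µg/ml and cytokine at 5 ng/ml, the medium was renewed at 48 h, and RNA was taken at 72 h in all groups. Titles of the PBS libraries name IFNγ or IL-4 after a comma, and do not say whether it was added. PBS was read as no cytokine. Lists of IFNγ-induced and IL-4-induced genes had log2 CPM means of -0.20 to 0.40 and -1.56 to -1.38 in PBS of their tables. On that reading, a difference from PBS holds the cytokine and the peptide together. Only SE against PE sets the peptides side by side under 1 labelled cytokine. No group with cytokine and no peptide was analysed here, and all libraries come from a single cell line.

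Type I interferons, IFN-α and IFN-β, bind the receptor formed by Ifnar1 and Ifnar2, whose kinases are Jak1 and Tyk2. Signalling leads to ISGF3, which contains Stat2 and Irf9 and binds interferon-stimulated response elements and switches on the antiviral genes described here. Type II interferon, IFNγ, acts through its own receptor and on GAS elements, so many genes answer to both interferons, and macrophages also carry a tonic, low interferon signal at rest. The genes chosen code for factors that keep the response going, sensors of foreign RNA and DNA, and effectors that block viral replication.

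Replicates 1-3 and 4-6 of every group were kept apart, and the sets differed in the make-up of their libraries. Histone and small RNA genes took 0.0680 to 0.103% of the counts in IFNγ-table replicates 1-3 and 17.1 to 23.8% in replicates 4-6, and under IL-4 0.0742 to 0.189% and 5.00 to 8.17%. Totals were 20.7 to 63.2 M counts in the IFNγ table and 17.05 to 30.6 M in the IL-4 table, at which 3 counts stand for 0.0475 to 0.145 and 0.0979 to 0.176 CPM of the raw total (CPM are counts scaled to the size of the library). Limits from counts cover counting error only. Intervals given for differences also include the spread between libraries within a group and replicate set, and not the spread between the sets. Summed macrophage markers stood at 4223 to 8003 CPM in the IFNγ table and 3855 to 11060 in the IL-4 table, with the residency marker Mertk near 0 throughout, while fibroblast, T cell and B cell markers summed to at most 1.27, 0.0831 and 0.294 CPM in the IFNγ table.

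Some of the libraries went against their label or stood apart. The libraries labelled SE+IFNγ, replicates 4-6, lacked the IFNγ response. A list of 12 genes induced mainly by IFNγ, MHC class II genes and guanylate-binding proteins among them, had a mean level of 6.70 to 6.86 on the log2 CPM scale in SE+IFNγ replicates 1-3, 6.66 to 6.73 in PE+IFNγ replicates 1-3 and 6.93 to 7.05 in PE+IFNγ replicates 4-6. The same mean was -0.23 to 0.16 in the libraries labelled SE+IFNγ, replicates 4-6, beside -0.20 to 0.40 in the 6 PBS libraries. In the IL-4 table, SE+IL-4 replicate 4 had a mean over the type I genes of 5.23, while the other 17 libraries of that table lay between 3.39 and 4.32. The results for IL-4 are given with and without that library.

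Promoter sequences from RefSeq (mouse build GRCm38.p6, 250 bases before to 50 bases after the start) were found for 30 of the 40 genes. The core of the ISGF3 element, written as GAAANNGAAA or, on the other strand, TTTCNNTTTC, matched at least once in 14 of these 30 genes (46.7%) and in 1079 of 27025 genes with a promoter (3.99%). The GAS pattern TTCNNNGAA, through which IFNγ acts, matched in 6 of 30 (20%) and in 2582 of all genes (9.55%). Windows of 70 bases with the core in capitals are shown for some of the genes with a match before the start, the 2 pairs of near-identical neighbours included. Stat2 and others with a match are not shown, nor are genes without a core match, such as Irf7, Oasl2 and Ifit2. All are printed on the strand of the gene, and a run of capitals longer than 10 letters holds overlapping matches.
Isg15, chr4:156200859-156200928, minus strand: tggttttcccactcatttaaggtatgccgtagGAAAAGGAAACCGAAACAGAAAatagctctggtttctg
Ifit1, chr19:34640764-34640833, plus strand: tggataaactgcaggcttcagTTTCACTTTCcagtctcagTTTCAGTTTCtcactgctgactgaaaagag
Ifit3, chr19:34583359-34583428, plus strand: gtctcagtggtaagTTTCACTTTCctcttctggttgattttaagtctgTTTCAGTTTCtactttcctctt
Ifit3b, chr19:34607755-34607824, plus strand: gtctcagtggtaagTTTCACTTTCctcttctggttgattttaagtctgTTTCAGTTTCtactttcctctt
Rsad2, chr12:26456533-26456602, minus strand: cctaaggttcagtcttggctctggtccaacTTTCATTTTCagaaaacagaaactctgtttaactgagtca
Oas3, chr5:120777695-120777764, minus strand: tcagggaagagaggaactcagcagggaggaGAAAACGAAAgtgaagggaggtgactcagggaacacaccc
Oas1a, chr5:120907528-120907597, minus strand: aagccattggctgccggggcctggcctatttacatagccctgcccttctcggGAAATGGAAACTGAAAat
Oas1g, chr5:120887614-120887683, minus strand: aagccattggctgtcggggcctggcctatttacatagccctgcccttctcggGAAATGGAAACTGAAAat

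The Ifit3 and Ifit3b windows were identical (100%), and those of Oas1a and Oas1g had the same base at 69 of 70 positions (98.6%). A match describes letters only and was not read as a bound site. The genes lie partly in clusters (GENCODE M21, GRCm38). Ifit2, Ifit3, Ifit3b and Ifit1 occupy chr19:34550694-34650009, Oas2, Oas3, Oas1g and Oas1a chr5:120730333-120907521, Oasl2 and Oasl1 chr5:114896936-114937915, Mx1 and Mx2 chr16:97447035-97560900, and Rsad2 and Cmpk2 chr12:26442746-26479837. Copies shared sequence. Of all 100-base windows of Oas1a transcripts 40.9% also occur in Oas1g, and 31.6% of those of Ifit3 occur in Ifit3b, so uniquely placed reads of these pairs come from the remaining sequence and their levels are less certain.

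With IFNγ and either peptide, 32 and 26 of the 40 type I genes had a level above PBS in replicates 1-3 (SE and PE). In SE+IFNγ against PBS, 20 of 40 rose and 3 fell, beside 11.0% and 10.1% of the 16845 genes tested, a gene being called at an edgeR adjusted p under 0.05 and a fold change over 1.5. In PE+IFNγ against the same PBS libraries 16 rose and 4 fell, beside 8.36% and 10.0% of all genes. The median log2 fold change over the 40 genes was 0.61 for SE and 0.45 for PE, with a median of -0.04 over all genes in both. In replicates 4-6, 12 genes rose and 4 fell in PE+IFNγ, beside 6.39% and 4.69% of all genes, and the median was 0.18. In bulk RNA a change in the number of cells that express a gene and a change in RNA per cell cannot be told apart.

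**Figure D1:**
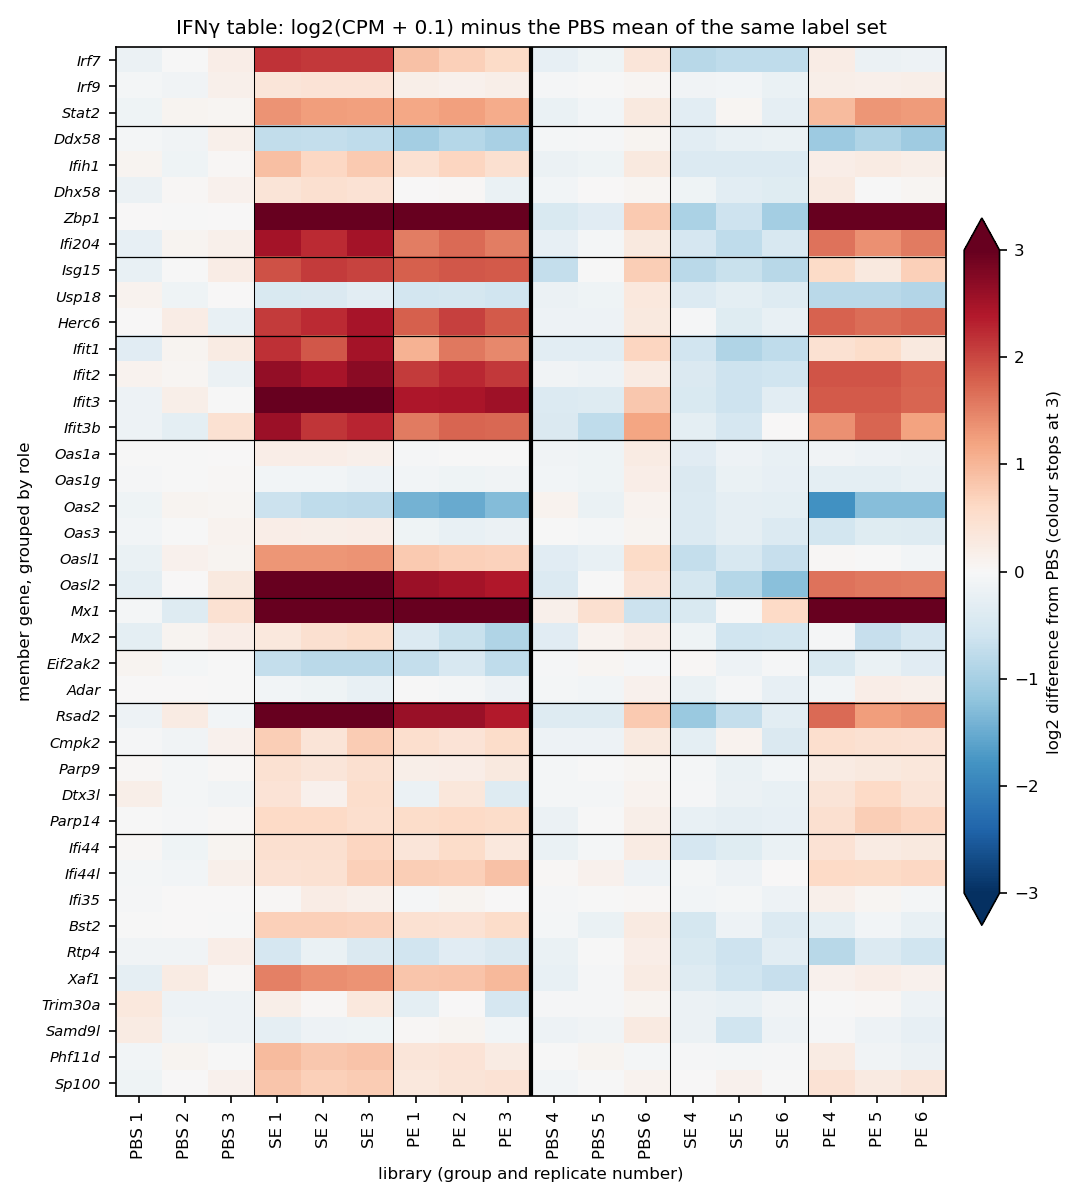
Level of each of the 40 genes (rows) in each of the 18 libraries of the IFNγ table (columns), as log2(CPM + 0.1) minus the mean of the 3 PBS libraries with the same replicate numbers, with the colour scale ending at 3. Zbp1, Rsad2, Mx1, Oasl2, Ifit2, Ifit3 and Ifit3b rose in SE+IFNγ replicates 1-3 and in both sets of PE+IFNγ, and none of them was called higher in the libraries labelled SE+IFNγ, replicates 4-6.

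Among the transcription factors, Irf7, the amplifier of interferon production in an ongoing response, differed most between the peptides. Irf7 was at 48.5, 54.9 and 63.0 CPM (library size scaled by TMM) in PBS replicates 1-3, at 247, 241 and 239 in SE+IFNγ and at 101, 90.003 and 82.0 in PE+IFNγ. The 3 groups did not overlap, and SE+IFNγ stood highest. Irf7 rose by 2.13 on the log2 scale with SE (4.37-fold, SE of the estimate 0.14, edgeR adjusted p = 1.46e-09) and by 0.72 with PE (1.64-fold, edgeR adjusted p = 0.000446). Its difference between SE and PE was 1.41 (2.66-fold, edgeR adjusted p = 2.22e-06), the largest among the 40 genes. Leaving out replicate 1 of all groups lowered the PE value to 0.55, below the fold threshold. In replicates 4-6 Irf7 was at 65.9, 71.7 and 101 CPM in PBS and at 91.2, 69.5 and 70.2 in PE+IFNγ, and these groups overlapped (log2 fold change -0.05, edgeR adjusted p = 0.856).

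Stat2, the subunit that brings the transactivation domain to ISGF3, rose with both peptides. Stat2 was at 38.1, 44.4 and 43.5 CPM in PBS replicates 1-3, 106, 99.8 and 98.8 in SE+IFNγ and 93.7, 97.9 and 91.5 in PE+IFNγ. Both peptide groups lay above PBS (2.42-fold and 2.25-fold), and SE and PE stood 0.11 apart on the log2 scale (95% interval -0.14 to 0.35). In replicates 4-6 it was at 41.6, 44.8 and 58.2 CPM in PBS and 91.8, 120.3 and 116 in PE+IFNγ, again without overlap (2.27-fold, edgeR adjusted p = 3.54e-07). Irf9, the DNA-binding subunit of ISGF3, was not called in any contrast with PBS. Irf9 was at 30.4, 29.3 and 34.9 CPM in PBS, 40.2, 42.0 and 41.5 in SE+IFNγ and 35.6, 34.4 and 35.4 in PE+IFNγ in replicates 1-3, with log2 fold changes from PBS of 0.39 and 0.15 that did not reach the fold threshold. In replicates 4-6 it was at 45.4, 46.1 and 48.6 CPM in PBS and 52.6, 52.1 and 52.3 in PE+IFNγ, so that the PE libraries lay above PBS by less than the fold threshold.

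Of the 5 sensors, 3 rose and 1 fell with SE in replicates 1-3, and 2 rose and 1 fell with PE in each set. Zbp1, a sensor of Z-form nucleic acid that can start necroptosis, had the largest rise of the 40 genes in replicates 1-3. It was at 1.20, 1.18 and 1.22 CPM in PBS replicates 1-3, 58.5, 51.4 and 58.6 in SE+IFNγ and 30.5, 30.5 and 28.6 in PE+IFNγ. The 3 groups were far apart, with rises of 46.7-fold for SE (log2 5.54, SE of the estimate 0.22, edgeR adjusted p = 2.42e-13) and 24.8-fold for PE, and SE 1.88-fold above PE (edgeR adjusted p = 0.000432). In replicates 4-6 Zbp1 was at 1.19, 1.30 and 2.95 CPM in PBS and 38.5, 32.4 and 31.8 in PE+IFNγ, a rise of 18.6-fold. The DNA-binding protein Ifi204, which feeds the STING pathway, rose 5.34-fold with SE and 3.01-fold with PE in replicates 1-3 and 2.85-fold with PE in replicates 4-6.

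The RNA helicases differed in direction. Ddx58, which codes for RIG-I, was at 31.5, 30.5 and 36.4 CPM in PBS replicates 1-3, 19.7, 19.8 and 19.2 in SE+IFNγ and 16.1, 17.97 and 16.6 in PE+IFNγ. Both peptide groups were below PBS without overlap, with log2 fold changes of -0.75 (edgeR adjusted p = 9.92e-08) and -0.96. In replicates 4-6 it was at 73.3, 75.4 and 81.9 CPM in PBS and 35.9, 40.9 and 36.5 in PE+IFNγ, again lower in every library (log2 fold change -1.03, edgeR adjusted p = 8.04e-10). The study also named Ddx58 from these libraries, so its place among the 40 is not independent of its direction. Ifih1, which codes for the long-RNA sensor MDA5, went the other way with SE, from 11.5, 10.0 and 11.2 CPM in PBS to 20.6, 16.9 and 18.8 in SE+IFNγ (1.72-fold, edgeR adjusted p = 3.69e-06). With PE it was at 15.1, 17.01 and 15.2 CPM, below the fold threshold (1.45-fold). In replicates 4-6 Ifih1 was at 35.7, 37.1 and 49.3 CPM in PBS and 46.4, 47.6 and 45.1 in PE+IFNγ, where it did not pass the test. Dhx58, which codes for the regulator LGP2, stood at log2 fold changes of 0.43 with SE and -0.05 with PE and was not called in replicates 1-3.

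**Figure D2:**
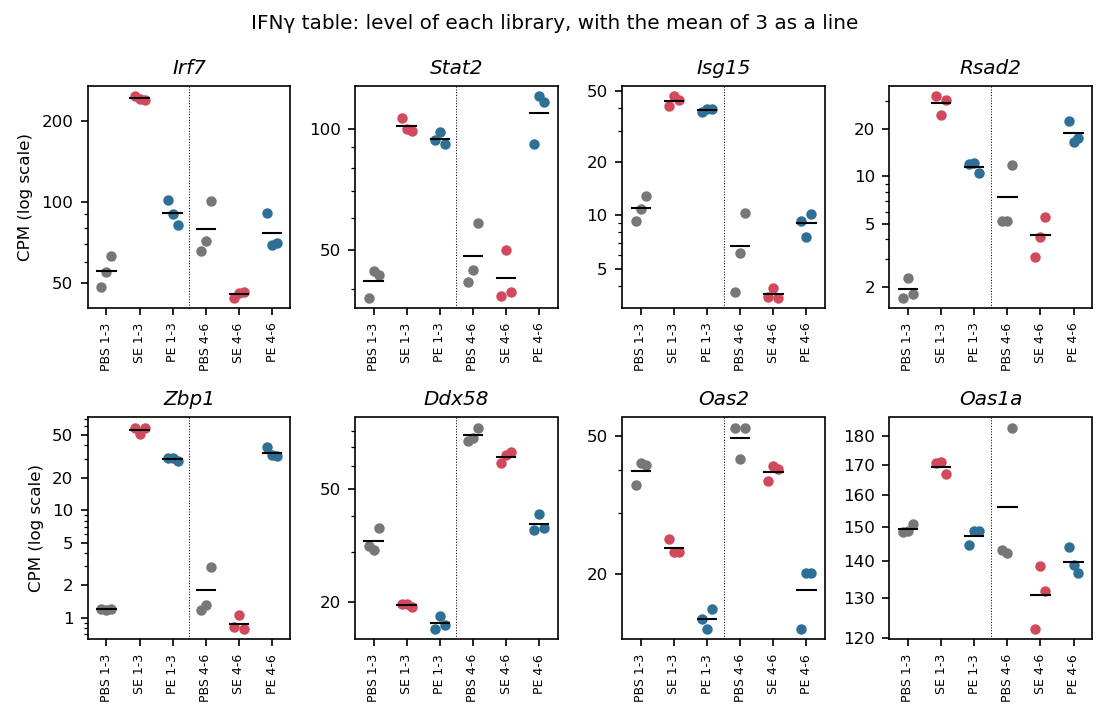
CPM on a log axis for Irf7, Stat2, Isg15, Rsad2, Zbp1, Ddx58, Oas2 and Oas1a in each library of the IFNγ table, with replicates 1-3 and 4-6 apart and a line at the mean of 3. Zbp1 lies between 1.18 and 2.95 CPM in PBS and between 28.6 and 58.6 CPM in the libraries with an IFNγ response, while Ddx58 and Oas2 lie lower there than in PBS of the same replicates and Oas1a is not called.

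In the ISG15 system, the modifier and its ligase rose with both peptides in replicates 1-3 and the protease did not. Isg15, the ubiquitin-like modifier, was at 9.28, 10.9 and 12.8 CPM in PBS replicates 1-3, 41.0, 46.9 and 44.8 in SE+IFNγ and 38.1, 39.7 and 39.5 in PE+IFNγ. It rose 4.03-fold (edgeR adjusted p = 5.80e-06) and 3.56-fold, with SE and PE 0.18 apart on the log2 scale (95% interval -0.29 to 0.65). In replicates 4-6 Isg15 was at 3.70, 6.11 and 10.3 CPM in PBS and 9.29, 7.55 and 10.2 in PE+IFNγ, and PBS replicate 6 reached above the PE libraries (log2 fold change 0.44, edgeR adjusted p = 0.250). Herc6, the mouse ligase that attaches ISG15, rose 5.00-fold with SE and 3.81-fold with PE in replicates 1-3 and 3.30-fold with PE in replicates 4-6. Usp18, which removes ISG15 and also restrains the interferon receptor, was at 63.3, 54.4 and 60.0 CPM in PBS, 42.8, 44.1 and 47.3 in SE+IFNγ and 40.1, 41.3 and 39.2 in PE+IFNγ in replicates 1-3. Its log2 fold changes of -0.41 and -0.56 did not pass the fold threshold, but the peptide libraries lay below every PBS library. Usp18 fell by 0.85 in PE+IFNγ replicates 4-6, from 63.3, 65.5 and 89.4 CPM to 41.2, 40.8 and 39.2 (edgeR adjusted p = 7.08e-07).

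All 4 IFIT genes, which code for proteins that bind viral RNA ends, rose in replicates 1-3 with both peptides. Ifit1 was at 0.813, 1.12 and 1.28 CPM in PBS, 5.15, 4.10 and 6.36 in SE+IFNγ and 2.26, 3.36 and 3.03 in PE+IFNγ. The groups did not overlap, with SE highest and PBS lowest, and the rise was 4.88-fold with SE and 2.71-fold with PE. Ifit1 was also higher with SE than with PE (1.80-fold, edgeR adjusted p = 0.0152), a call that was lost without replicate 1 (log2 0.71) or without replicate 3 (0.71) of all groups. In replicates 4-6 Ifit1 was at 3.54, 3.55 and 7.02 CPM in PBS and 6.17, 6.62 and 5.46 in PE+IFNγ, and PBS replicate 6 was the highest of these libraries. Ifit2 was at 2.91, 2.82 and 2.40 CPM in PBS, 17.2, 15.5 and 18.2 in SE+IFNγ and 11.8, 13.3 and 12.04 in PE+IFNγ in replicates 1-3. In replicates 4-6 it was at 8.01, 7.77 and 10.2 CPM in PBS and 32.0, 32.3 and 29.4 in PE+IFNγ. The groups with IFNγ lay far above PBS in both sets, with rises of 6.24-fold, 4.55-fold and 3.59-fold. Ifit3 rose 9.78-fold with SE and 5.96-fold with PE in replicates 1-3, and its near-copy Ifit3b rose 5.54-fold and 3.44-fold.

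The OAS family, which makes 2′-5′-linked oligoadenylates that activate RNase L, divided in replicates 1-3 into the OAS-like genes, which rose, and Oas2, which fell. Oasl1 was at 37.0, 46.6 and 45.1 CPM in PBS replicates 1-3, 107, 107 and 108 in SE+IFNγ and 73.3, 69.6 and 68.5 in PE+IFNγ. Its rise was 2.50-fold with SE and 1.64-fold with PE, and SE stood 1.52-fold above PE (edgeR adjusted p = 0.0197). That last call was lost when any 1 of replicates 1, 2 and 3 was left out (log2 0.64, 0.60 and 0.58), and the PE call without replicate 1 (0.59). Oasl1, an inhibitor of Irf7 translation in mice, was at 53.7, 57.7 and 100.2 CPM in PBS replicates 4-6 and 69.0, 67.7 and 63.9 in PE+IFNγ, with PBS replicate 6 above and the other PBS libraries below the PE libraries.

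Oasl2 was at 2.72, 3.33 and 4.08 CPM in PBS, 39.3, 34.8 and 39.4 in SE+IFNγ and 20.3, 19.2 and 18.1 in PE+IFNγ in replicates 1-3, and at 4.56, 6.07 and 8.15 in PBS and 19.1, 18.3 and 18.2 in PE+IFNγ in replicates 4-6. It rose 11.2-fold, 5.70-fold and 2.97-fold without overlap of groups. Oas2 was at 36.2, 41.8 and 41.1 CPM in PBS replicates 1-3, 25.2, 23.2 and 23.1 in SE+IFNγ and 14.8, 13.9 and 15.9 in PE+IFNγ. It was lowest with PE (log2 fold change -1.41, edgeR adjusted p = 2.26e-09) and lay in between with SE (-0.74, edgeR adjusted p = 1.12e-05). In replicates 4-6 Oas2 was at 52.6, 42.8 and 52.8 CPM in PBS and 13.9, 20.1 and 20.1 in PE+IFNγ, a log2 fold change of -1.45. Oas1a, Oas1g and Oas3 were not called against PBS in any of these contrasts, with log2 fold changes between -0.43 and 0.18.

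The Mx GTPases, which trap viral ribonucleoproteins, also differed from each other. Mx1 was at 0.252, 0.182 and 0.405 CPM in PBS replicates 1-3, 3.60, 4.44 and 3.26 in SE+IFNγ and 3.99, 3.61 and 3.00 in PE+IFNγ, and at 0.198, 0.276 and 0.0709 in PBS and 6.37, 3.65 and 4.55 in PE+IFNγ in replicates 4-6. It rose 13.4-fold, 12.5-fold and 27.5-fold, from PBS levels of 3 to 13 counts a library. Mx2 was at 1.57, 2.06 and 2.24 CPM in PBS replicates 1-3, 2.44, 2.73 and 2.89 in SE+IFNγ and 1.44, 1.18 and 0.991 in PE+IFNγ. Mx2 fell with PE by 0.70 on the log2 scale (edgeR adjusted p = 0.0203), a call lost without replicate 2 (-0.64) or replicate 3 (-0.47), and SE stood 2.23-fold above PE (edgeR adjusted p = 0.000945). In replicates 4-6 Mx2 was at 2.74, 3.79 and 4.09 CPM in PBS and 3.42, 2.13 and 2.44 in PE+IFNγ, with overlap. The annotation lists Mx2 as a polymorphic pseudogene.

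Rsad2, which codes for viperin, the maker of a chain-terminating nucleotide, was at 1.71, 2.27 and 1.81 CPM in PBS replicates 1-3, 32.2, 24.4 and 30.4 in SE+IFNγ and 12.01, 12.1 and 10.5 in PE+IFNγ. It rose 15.0-fold with SE (edgeR adjusted p = 6.76e-08) and 5.97-fold with PE, and SE was 2.52-fold above PE (edgeR adjusted p = 0.00199), a call lost without replicate 3 of all groups (log2 1.23). In replicates 4-6 Rsad2 was at 5.20, 5.24 and 11.9 CPM in PBS and 22.5, 16.6 and 17.4 in PE+IFNγ, a rise of 2.50-fold (edgeR adjusted p = 0.00155). Its neighbour Cmpk2, a nucleotide kinase of the mitochondrion, rose 1.57-fold with SE in replicates 1-3 and stood at 1.40-fold and 1.37-fold with PE, under the fold threshold.

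Eif2ak2, which codes for the RNA-activated kinase PKR that stops translation, was at 30.7, 27.9 and 28.7 CPM in PBS replicates 1-3, 17.7, 16.6 and 16.6 in SE+IFNγ and 17.7, 20.7 and 17.1 in PE+IFNγ. It fell by 0.77 with SE (edgeR adjusted p = 1.64e-07) and by 0.65 with PE, and both groups lay below every PBS library. In replicates 4-6 it stood at 56.1, 59.6 and 55.6 CPM in PBS and 41.2, 49.6 and 45.1 in PE+IFNγ and was not called. Adar, the RNA editor, was not called in any IFNγ-table contrast.

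The Parp9 group, in which the ligase Dtx3l partners Parp9, had small changes. Parp9, Dtx3l and Parp14 had log2 fold changes of 0.44, 0.36 and 0.57 with SE in replicates 1-3 and none was called, while Parp14 rose 1.52-fold with PE in replicates 4-6. Of the other 10 effectors, 4 rose with SE in replicates 1-3, namely Xaf1, a pro-apoptotic factor (2.67-fold), Phf11d (1.84-fold), the nuclear body component Sp100 (1.70-fold) and Bst2, the tetherin that holds budding virus at the membrane (1.64-fold). With PE, Xaf1 (1.84-fold) and Ifi44l (1.72-fold) rose in replicates 1-3, and Ifi44l rose 1.52-fold and Rtp4 fell by 0.61 on the log2 scale in replicates 4-6. Ifi44, Ifi35, Trim30a and Samd9l were not called against PBS in the IFNγ table, with log2 fold changes of 0.54, 0.14, 0.16 and -0.20 with SE in replicates 1-3.

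Per kilobase of exon, Bst2 was the most abundant of the 40 genes in replicates 1-3, at 112 ± 1.50 CPM per kb in PBS and 183 ± 1.44 in SE+IFNγ (SD, n = 3), ahead of Oas1a at 79.2 ± 0.730 and 89.9 ± 1.21. Irf7 came next with SE, at 64.1 ± 1.18 CPM per kb, and reached 24.1 ± 2.58 with PE. Exon length here is the union of all annotated exons of a gene. For Irf7 that union is 1 block of 3776 bases that spans the whole gene, so its levels per kb and its place in the order may be too low. Mx1 was the least abundant in PBS, at 0.0739 ± 0.0302 CPM per kb.

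**Figure D3:**
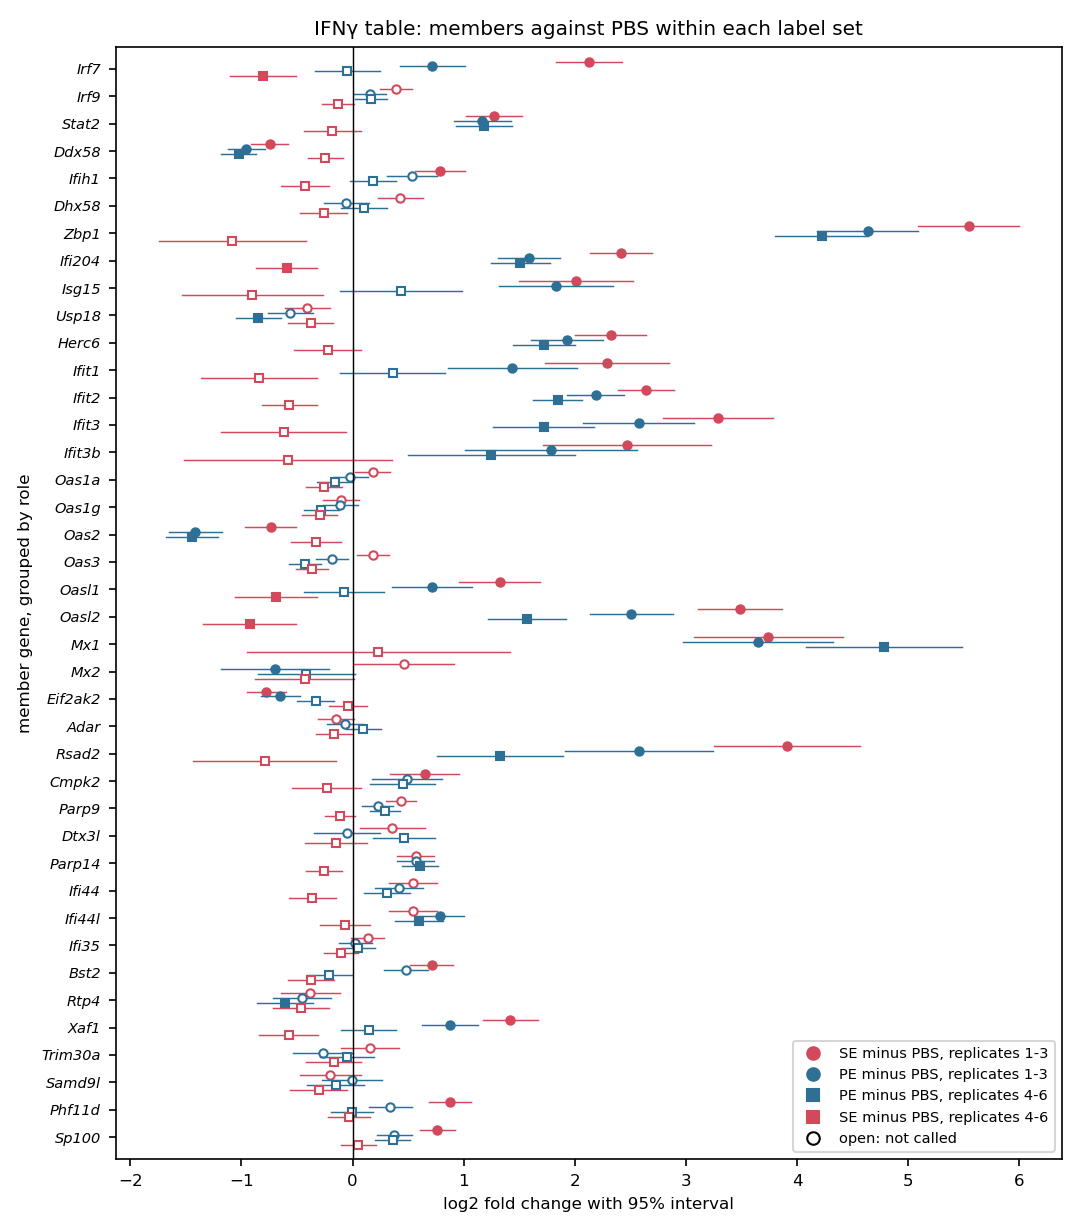
Log2 fold change from PBS with its 95% interval for each of the 40 genes in the IFNγ table, for libraries labelled SE and PE and for replicates 1-3 and 4-6, with filled points where the gene was called. Zbp1, Rsad2, Mx1, Oasl2, Ifit3 and Ifit2 lie furthest to the right in SE replicates 1-3 and PE replicates 1-3, Ddx58, Oas2 and Eif2ak2 lie to the left, and in the libraries labelled SE, replicates 4-6, no gene is called higher.

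The response to PE and IFNγ recurred in both replicate sets, which have their own PBS libraries. 11 genes rose in both, 68.75% of the 16 that rose in replicates 1-3 and 91.67% of the 12 that rose in replicates 4-6. They were Herc6, Ifi204, Ifi44l, Ifit2, Ifit3, Ifit3b, Mx1, Oasl2, Rsad2, Stat2 and Zbp1. Ddx58 and Oas2 fell in both, 50% of the 4 that fell in each set. No such overlap over all genes is given here, so whether it is particular to the 40 was not tested. A test of the difference between the sets found 6 genes with a larger PE response in replicates 1-3 and none with a smaller one, beside 3.54% and 7.75% of all genes (edgeR adjusted p under 0.05, DESeq2 9 and none). These were Isg15 (by 1.39 on the log2 scale), Oasl2 (0.94), Oasl1 (0.80), Irf7 (0.76), Xaf1 (0.73) and Bst2 (0.69). In either direction, 17 of the 40 had an unadjusted p under 0.05, beside 4359 of all 16845 genes. The count of 6 became 2 without replicate 1, 4 without replicate 2 (2 of them smaller), 3 without replicate 3 and 10 without replicate 4 of all groups. Beside these differences, PBS itself stood higher in replicates 4-6 (mean over the 40 genes 4.35 to 4.78, against 3.77 to 3.91 on the log2 CPM scale), with PBS replicate 6 highest. The part of that library or of the histone and small RNA share in the set differences was not tested.

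In the libraries labelled SE+IFNγ, replicates 4-6, the rises seen with SE in replicates 1-3 were missing. No gene rose and 4 fell against PBS, beside 0.736% and 1.09% of all genes (edgeR, 25 of the 40 and 3186 of all 16845 genes with an unadjusted p under 0.05, 13 of the 40 with an adjusted p under 0.05, DESeq2 none higher and 6 lower). Zbp1 was at 0.810, 1.05 and 0.779 CPM, Rsad2 at 3.10, 4.14 and 5.52 and Isg15 at 3.48, 3.86 and 3.42. Stat2 was at 38.5, 50.01 and 39.5 CPM, Irf9 at 43.6, 44.2 and 40.4, Ifit1 at 2.95, 2.32 and 2.61 and Mx2 at 3.19, 2.26 and 2.37. All of these lie within or below the range of PBS replicates 4-6. The sensors Ddx58 and Ifih1 stood at 61.7, 65.5 and 67.3 CPM and at 30.3, 30.1 and 30.3 CPM, and Usp18 at 54.4, 58.8 and 54.9. Ddx58, Ifih1 and Usp18 thus also lay below or at the edge of the PBS libraries, and none was called.

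The 4 genes that fell were Irf7, Oasl2, Oasl1 and Ifi204. Irf7 stood at 44.1, 46.0 and 46.3 CPM, below all PBS libraries of replicates 4-6 (log2 fold change -0.80, edgeR adjusted p = 0.00504). Oasl2 was at 4.19, 3.31 and 2.51 CPM (-0.92, edgeR adjusted p = 0.0143), Oasl1 at 41.5, 48.2 and 41.9 (-0.69, edgeR adjusted p = 0.0347), and Ifi204 at -0.59 on the log2 scale. Without PBS replicate 6, the PBS library with the highest type I genes, 1 gene was called, Irf7 (-0.60), while Oasl1 (-0.35), Oasl2 (-0.67) and Ifi204 lost their call. Without replicate 4 of all groups 9 were called, and without replicate 6 of all groups 1, and the shares of all genes called in these fits are not given. The SE response differed between the replicate sets for 33 of 40 genes, 30 larger and 3 smaller in replicates 1-3, beside 16.8% and 18.6% of all genes, with the largest gaps for Zbp1 (6.63), Rsad2 (4.70), Oasl2 (4.41) and Ifit3 (3.91). Since these libraries show no induction of the 12 IFNγ genes, a direction for SE drawn from them goes against their label. PE+IFNγ replicates 4-6, compared with the same PBS libraries, did show that induction. Whether the label or the treatment differed in the libraries labelled SE cannot be told apart.

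SE+IFNγ against PE+IFNγ compares the peptides with the cytokine in both groups. In replicates 1-3, where both groups carried the IFNγ response, 10 of 40 genes were higher with SE and none was lower, beside 4.09% and 1.23% of all genes (edgeR, 27 of the 40 and 5085 of all 16845 genes with an unadjusted p under 0.05 in either direction, DESeq2 10 and none). The median was 0.31, with 35 of 40 values above 0 and a median of 0.00 over all genes. Beside Irf7, Rsad2, Mx2, Zbp1, Ifit1 and Oasl1, the genes higher with SE were Oasl2 (1.97-fold), Ifi204 (1.78-fold), Ifit3 (1.64-fold) and Oas2 (1.60-fold, where both groups were below PBS). Mx2 was called below PBS with PE and not called with SE, and the other 8 genes rose against PBS with both peptides.

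Other genes that rose with both peptides were not called between them. For Mx1 the log2 difference was 0.09 with a 95% interval of -0.39 to 0.58, which reaches the fold threshold, as does that of Isg15. For Stat2 the interval lay within it, as did that of Ifi44l (-0.24, 95% interval -0.45 to -0.03), which was called against PBS with PE but not with SE. For 21 of the 40 genes the whole 95% interval of the difference lay inside a 1.5-fold change either way. Over the 40 genes, the median distance from the estimate to either end of the interval was 0.24. The IFNγ-induced list had calls in both directions, with 3 of 12 higher and 2 of 12 lower with SE, beside 4.09% and 1.23% of all genes. Cxcl9 (1.64), Gbp2 (1.32) and Gbp3 (0.62) were above and H2-Ab1 (-0.75) and H2-Aa (-0.60) below on the log2 scale. Summed osteoclast markers were also higher with SE, at 109 to 123 CPM against 73.0 to 82.9 with PE and 251 to 282 in PBS, and their part in the result was not tested. Atp6v0d2 was the largest part of these sums, at 2820, 2167 and 2530 counts with SE and 1251, 1622 and 1609 with PE. Acp5, Mmp9 and Ocstamp also had higher counts with SE, whereas Ctsk (310, 385 and 381 against 282, 321 and 342) and Dcstamp differed less.

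**Figure D4:**
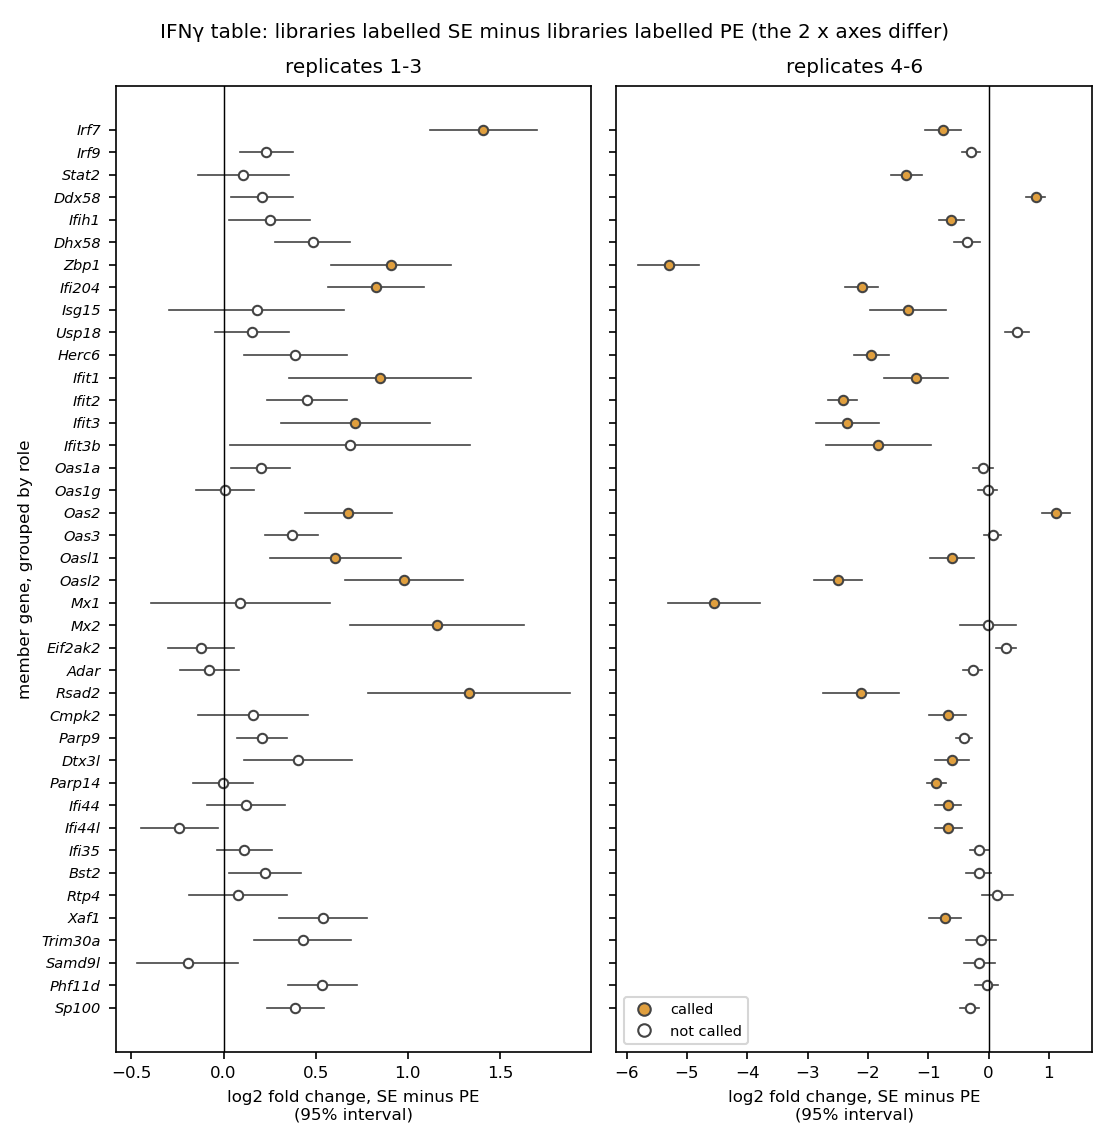
Log2 fold change with its 95% interval for libraries labelled SE minus libraries labelled PE in the IFNγ table, replicates 1-3 and 4-6 on separate x axes of different range, with filled points for called genes. In replicates 1-3 the called genes all lie to the right, led by Irf7 at 1.41, whereas in replicates 4-6 21 genes lie to the left and Oas2 and Ddx58 to the right.

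In replicates 4-6 the same contrast ran the other way, with 2 genes higher and 21 lower in the libraries labelled SE, beside 5.68% and 8.08% of all genes and a median of -0.61. Zbp1 (-5.30), Mx1 (-4.55) and Oasl2 (-2.49) were lowest, and Oas2 (37.0, 41.0 and 40.3 CPM labelled SE, log2 fold change 1.12) and Ddx58 (0.78) were higher. Mx1 was at 0.0953, 0.166 and 0.305 CPM in these libraries labelled SE. The difference between SE and PE differed between the replicate sets for 34 of 40 genes, 31 upward and 3 downward, beside 16.4% and 12.5% of all genes. The 12 IFNγ genes were all lower in the libraries labelled SE as well, so these values set PE with an IFNγ response against libraries without one. Joining the 6 replicates of each group, as the labels allow, left 1 of 40 genes called for SE against PBS and 1 for SE against PE. The shares of all genes called in that joined fit are not given here.

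Genes that rose were found both with and without the ISRE core in the promoter window. Of the 14 genes with an ISRE core, 8 rose and 2 fell with SE in replicates 1-3 and their median log2 fold change was 0.75. Of the 16 without one in the window, 9 rose and none fell, with a median of 0.71. With PE the medians were 0.51 and 0.45 in replicates 1-3. Ddx58 and Eif2ak2, which fell, hold their only match past the start (offsets 2 and 18), and so does Ifih1 (offset 32), which rose with SE. Trim30a, which was not called, holds a match before the start of 1 promoter and past the start of another. Irf7 and Oasl2, which rose, hold none in this window. For the other 10 genes, namely Zbp1, Ifi204, Dhx58, Parp9, Oas2, Usp18, Mx2, Mx1, Rtp4 and Parp14, no promoter was examined.

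Genes upstream of the response were taken from fixed lists. Ifnb1, which codes for IFN-β, was counted 4, 3 and 1 times in SE+IFNγ replicates 1-3 and 0 times in all the other libraries of the IFNγ table, counts at or near the 3-count limit. Ifna1, Ifna2, Ifna4, Ifna5 and Ifng had no count in any library of either table. The receptor genes Ifnar1 and Ifnar2 were not called against PBS in the IFNγ table, with log2 fold changes of -0.55 and 0.48 with SE in replicates 1-3. Of 23 signalling genes, 10 rose and 1 fell with SE and 8 rose and 2 fell with PE in replicates 1-3, and 8 rose and none fell with PE in replicates 4-6. Of all genes, 11.0%, 8.36% and 6.39% rose and 10.1%, 10.0% and 4.69% fell in these contrasts. Irf1, a transcription factor induced by IFNγ, rose by 2.16, 2.80 and 3.06 on the log2 scale in these contrasts. Irf1 was lower with SE than with PE in replicates 1-3 (-0.63), opposite to Irf7, whereas Jak1 (0.79), Ticam1 (0.63) and Tlr9 (0.59) were higher. Of 34 further interferon-stimulated genes tested, 13 rose and 3 fell with SE and 9 rose and 2 fell with PE in replicates 1-3, and 10 rose and 3 fell with PE in replicates 4-6. The shares of all genes just given apply to these counts too. Between the peptides in replicates 1-3, 3 of these 34 were higher with SE and none was lower, beside 4.09% and 1.23% of all genes. They were Ddx60 (0.77), Ifi205 (0.76) and Slfn2 (0.69).

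With IL-4, an inducer of alternative activation that acts mainly through Stat6, none of the type I genes was called higher than PBS. The IL-4 response itself was present, since all 6 tested genes of an IL-4-induced list rose in each peptide group against PBS in both replicate sets. That list also holds Retnla and Ccl17, without a count in any IL-4-table library, and Chil3 and Ccl22, with at most 1 and 12 counts. Of 39 genes tested, Ifit3b having too few counts, none rose and 4 fell with SE in replicates 1-3, beside 1.94% and 4.19% of the 14183 genes tested (DESeq2 none and 4). With PE none rose and 3 fell in replicates 1-3, beside 1.51% and 1.96%, and none rose and 6 fell in replicates 4-6, beside 1.26% and 2.28% (DESeq2 6 and 8 lower, none higher). The medians were -0.52 for SE and -0.48 and -0.62 for PE, with -0.07, -0.07 and -0.01 over all genes. With an unadjusted p under 0.05 in either direction there were 13, 19 and 25 of the 39, beside 4067, 3281 and 2850 of the 14183 genes.

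**Figure D5:**
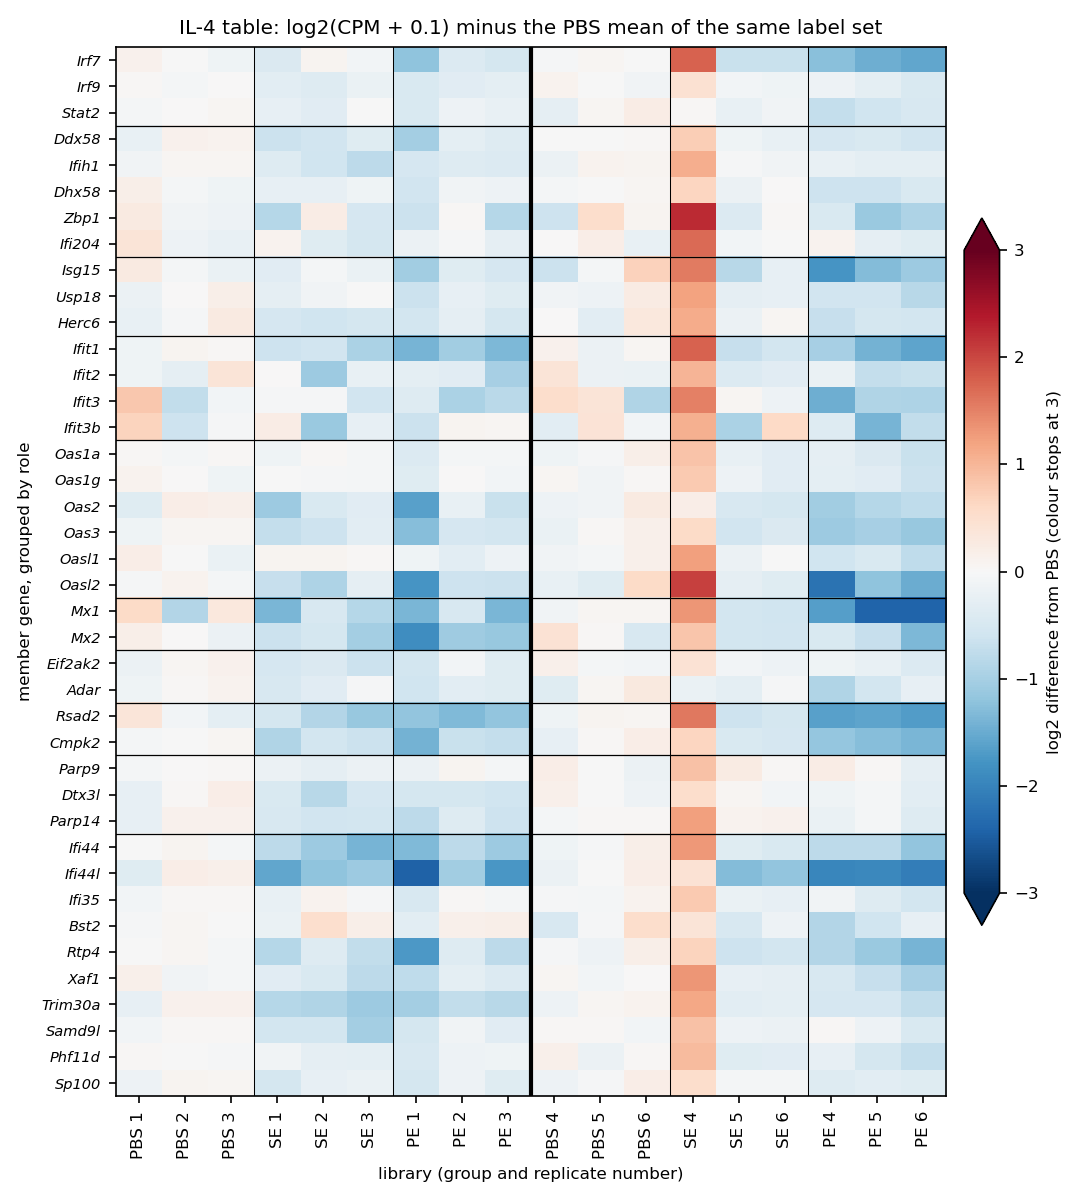
Level of each of the 40 genes (rows) in each of the 18 libraries of the IL-4 table (columns), as log2(CPM + 0.1) minus the mean of the 3 PBS libraries with the same replicate numbers, with the colour scale ending at 3. SE+IL-4 replicate 4 stands above PBS for nearly all genes, while most other peptide libraries lie at or below PBS.

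Ifi44l, a negative regulator of the interferon response, fell with both peptides. It was at 14.6, 21.4 and 20.9 CPM in PBS replicates 1-3, 6.31, 8.07 and 8.76 in SE+IL-4 and 3.37, 8.998 and 5.46 in PE+IL-4. Both peptide groups lay below PBS (log2 fold changes -1.30 and -1.68, edgeR adjusted p = 0.0338 and 0.0184). In replicates 4-6 it was at 19.5, 21.8 and 25.3 CPM in PBS, 29.7, 8.84 and 9.67 in SE+IL-4 and 5.63, 5.73 and 5.15 in PE+IL-4 (PE -2.01, edgeR adjusted p = 0.00659). The first SE value, replicate 4, was the highest of these libraries, and without it Ifi44l fell with SE too (-1.25, edgeR adjusted p = 0.0300), the one call among the 39 genes beside 0.270% of all genes. The study also named Ifi44l from these libraries.

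Trim30a, an inhibitor of NF-κB signalling, was at 26.8, 34.7 and 34.6 CPM in PBS replicates 1-3, 17.6, 16.96 and 14.8 in SE+IL-4 and 15.7, 19.2 and 17.7 in PE+IL-4, and fell with SE (-0.96, edgeR adjusted p = 0.0332). Samd9l, an antiviral factor, fell with SE from 43.0, 46.7 and 46.9 to 31.2, 30.9 and 22.3 CPM (-0.69, edgeR adjusted p = 0.0485), and Dtx3l fell by 0.61. With PE, Samd9l stood at 31.4, 42.3 and 35.9 CPM and was not called. For both genes all peptide libraries lay below all PBS libraries.

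Cmpk2 was at 6.29, 6.52 and 6.80 CPM in PBS and 2.39, 4.09 and 3.95 in PE+IL-4 in replicates 1-3 (-0.92, edgeR adjusted p = 0.0483) and at 8.46, 10.3 and 11.5 and 4.43, 4.08 and 3.78 in replicates 4-6 (-1.29, edgeR adjusted p = 0.00713). Mx2 fell with PE in replicates 1-3, from 4.20, 3.72 and 3.23 to 0.948, 1.72 and 1.64 CPM (-1.38, edgeR adjusted p = 0.0396), with SE at 2.32, 2.52 and 1.76. Rsad2 fell with PE in replicates 4-6, from 4.67, 5.42 and 5.39 to 1.60, 1.65 and 1.55 CPM (-1.69, edgeR adjusted p = 0.0363). Oas3 (-1.08) and Stat2 (-0.62) fell there as well, and Mx1 was counted 7, 9 and 9 times in PBS and 2, 0 and 0 times in PE+IL-4. Ifi44l and Cmpk2 fell with PE in both replicate sets, 66.67% of the 3 and 33.33% of the 6 calls, and no such overlap over all genes is given here.

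These IL-4 counts depended on single libraries. Without SE+IL-4 replicate 4, which also enters the estimate of the spread for the other contrasts, 8 genes fell with SE in replicates 1-3 (beside 4.20% of all genes), 10 with PE in replicates 1-3 (2.23%) and 15 with PE in replicates 4-6 (2.66%). In SE replicates 4-6, then 2 libraries, 1 gene fell, Ifi44l (-1.25 on the log2 scale, edgeR), beside 0.270%. None of the 39 rose in these contrasts, beside 2.40%, 1.87%, 1.65% and 0.754% of all genes. The genes added for SE were Ifi44, Rsad2, Ifit1 and Cmpk2, and among those added for PE were Irf7 in both sets (-0.67 and -1.40) and Isg15 in replicates 4-6 (-1.54). Leaving out 1 replicate number of all groups moved the SE count in replicates 1-3 from 4 to 2 (replicate 1) or 0 (replicates 2 and 3), the PE count there from 3 to 1 or 0, and the PE count in replicates 4-6 from 6 to 16 (replicate 4) or 0 (replicates 5 and 6).

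The levels of single genes show how far SE+IL-4 replicate 4, the first SE value of replicates 4-6, stood from the rest. Irf7 was at 56.6, 60.8 and 58.0 CPM in PBS, 199, 37.0 and 36.5 in SE+IL-4 and 24.5, 21.1 and 19.9 in PE+IL-4. Isg15 was at 2.31, 3.48 and 5.93 CPM in PBS, 10.9, 1.99 and 3.04 in SE+IL-4 and 0.989, 1.42 and 1.66 in PE+IL-4. Zbp1 was at 0.659, 1.59 and 1.14 CPM in PBS, 5.38, 0.773 and 1.10 in SE+IL-4 and 0.750, 0.443 and 0.515 in PE+IL-4. In all 3 genes that library was the highest of the 9, and the other SE libraries lay within or below the range of PBS. Ifit1 was at 2.86, 2.29 and 2.72 CPM in PBS, 9.09, 1.58 and 1.75 in SE+IL-4 and 1.26, 0.918 and 0.801 in PE+IL-4. Usp18 was at 62.8, 60.8 and 79.6 CPM in PBS, 157, 56.1 and 56.8 in SE+IL-4 and 44.8, 45.4 and 37.8 in PE+IL-4. Ddx58 was at 58.3, 59.1 and 60.2 CPM in PBS, 99.3, 54.0 and 50.6 in SE+IL-4 and 42.0, 42.8 and 39.7 in PE+IL-4. Here too it was the highest, and both other SE libraries lay below all PBS libraries. Rsad2 was at 15.6, 3.31 and 3.54 CPM in SE+IL-4, Ifih1 at 66.7, 30.3 and 28.9 and Oasl1 at 89.0, 33.2 and 37.3. Mx2 was at 10.8, 4.09 and 3.99 CPM there, Irf9 at 69.8, 48.0 and 46.1 and Stat2 at 25.4, 21.3 and 22.9. Of these, Stat2 had the smallest gap between that library and the others. In that library Ifnb1 was counted 5 times, against at most 2 in the other IL-4-table libraries. The IL-4-induced genes had a mean of 1.06 there (1.24 and 1.26 in the other SE libraries of replicates 4-6, log2 CPM scale) and summed macrophage markers were 3855 CPM (5223 and 5861). The part of these in its level was not tested.

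In replicates 1-3 the same genes lay closer together. Irf7 was at 84.8, 76.2 and 71.0 CPM in PBS, 57.3, 82.0 and 72.9 in SE+IL-4 and 33.2, 58.3 and 53.1 in PE+IL-4. Stat2 was at 47.6, 49.7 and 51.7 CPM in PBS, 41.9, 39.5 and 49.4 in SE+IL-4 and 36.2, 44.3 and 42.5 in PE+IL-4. Zbp1 was at 1.94, 1.48 and 1.41 CPM in PBS, 0.837, 1.86 and 1.09 in SE+IL-4 and 0.986, 1.64 and 0.839 in PE+IL-4. For each of them the SE and PE libraries overlapped. Isg15 was at 16.6, 13.1 and 11.9 CPM in PBS, 10.8, 13.1 and 11.98 in SE+IL-4 and 6.56, 10.7 and 9.65 in PE+IL-4. Oasl1 was at 76.3, 66.0 and 57.2 CPM in PBS, 69.6, 69.5 and 68.1 in SE+IL-4 and 60.8, 53.5 and 59.7 in PE+IL-4. Usp18 was at 71.8, 81.0 and 90.5 CPM in PBS, 67.4, 74.7 and 80.2 in SE+IL-4 and 51.6, 68.5 and 63.1 in PE+IL-4. For Isg15 the PE libraries lay just below all others, for Oasl1 and Usp18 PE overlapped another group, and PE replicate 1, the first PE value, was the lowest library for Isg15 and Usp18. Ddx58 was at 46.7, 59.5 and 58.8 CPM in PBS, 35.2, 36.7 and 42.6 in SE+IL-4 and 26.99, 44.9 and 41.6 in PE+IL-4. Irf9 was at 59.1, 55.7 and 58.0 CPM in PBS, 46.3, 44.2 and 50.1 in SE+IL-4 and 42.0, 45.3 and 47.0 in PE+IL-4. Ifih1 was at 19.6, 22.0 and 22.1 CPM in PBS, 16.2, 14.0 and 12.3 in SE+IL-4 and 15.0, 16.2 and 15.8 in PE+IL-4. For these 3 genes all peptide libraries lay below all PBS libraries, without passing the test. Rsad2 was at 3.43, 2.48 and 2.12 CPM in PBS, 1.79, 1.39 and 1.13 in SE+IL-4 and 1.10, 0.990 and 1.09 in PE+IL-4. Ifit1 was at 1.69, 2.00 and 1.93 CPM in PBS, 1.18, 1.21 and 0.922 in SE+IL-4 and 0.644, 0.861 and 0.672 in PE+IL-4. Rsad2 and Ifit1 stood in the order PBS, SE, PE without overlap and were called in replicates 1-3 when SE+IL-4 replicate 4 was left out.

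SE+IL-4 in replicates 4-6 gave no call against PBS, higher or lower, beside 1.21% and 0.980% of all genes (edgeR, 3 of the 39 and 2909 of all genes with an unadjusted p under 0.05, DESeq2 none), and its median was 0.23 with replicate 4 and -0.25 without it. SE against PE under IL-4 gave no call among the type I genes in replicates 1-3 or 4-6, and none among all 14183 genes (0%). In replicates 1-3, edgeR gave 0 of the 39 and 567 of all genes an unadjusted p under 0.05 (DESeq2 none called), the median was 0.11, and for 14 genes the whole 95% interval lay inside 1.5-fold. In replicates 4-6 all 39 values were above 0 with a median of 0.85, beside a median of 0.00 over all genes. Of the 39, 37 had an unadjusted p under 0.05 beside 1302 of all genes, and for 0 genes did the interval lie inside 1.5-fold. DESeq2 called 11 higher, and its share of all genes is not given here. Without SE+IL-4 replicate 4 the median was 0.39, again with all 39 values above 0, and 19 had an unadjusted p under 0.05, beside 734 of all genes, with no call (0%). The SE response to IL-4 differed between the sets for Parp14 (-1.14, edgeR adjusted p = 0.0459) and Dtx3l (-0.80), both lower in replicates 1-3 and none higher, beside 3.50% lower and 0.959% higher of all genes, and for none without replicate 4. The PE response under IL-4 gave no such difference for the 39 genes, beside 0% and 0.00705% of all genes (edgeR, 0 of the 39 and 1475 of all genes with an unadjusted p under 0.05, DESeq2 none), nor did SE against PE (edgeR, 21 of the 39 and 437 of all genes with an unadjusted p under 0.05, DESeq2 none, 0% of all genes called). Of the signalling genes under IL-4, Socs1, a feedback inhibitor of cytokine receptors, rose in SE and PE replicates 1-3 (2.42 and 2.40 on the log2 scale) and in PE replicates 4-6 (1.05). In SE replicates 4-6 Socs1 was at 1.02 but not called (edgeR adjusted p = 0.0530), and the kinase Jak2 rose (0.77). Jak2 was counted 3329, 2289 and 1478 times in these SE libraries, in totals of 22.7, 26.3 and 21.1 M. The first of them, SE+IL-4 replicate 4, was the highest, and the Jak2 value without that library is not given here.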

How the data were processed

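Per the labels and the study's methods, RNA from 36 cultures was sequenced as single-end 100-base reads, and the authors used featureCounts to count those that aligned uniquely to genes of Gencode M12 on GRCm38.p5. The strand option of the counting is not given in the sources used here. The deposited values are raw gene counts. The submitters' processing notes name DESeq2 1.16.1 and R 3.4.1.

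Here the counts of each table were fitted with edgeR 4.0.16 in R 4.3.3 (TMM scaling, filterByExpr, robust quasi-likelihood test) with a mean for each group and replicate set of 3 libraries, using all 18 libraries. A call required a p under 0.05 after Benjamini-Hochberg adjustment over all genes tested and a fold over 1.5, and a difference between replicate sets at an adjusted p under 0.05. CPM use the TMM-scaled library size, whereas the 3-count limits use the raw total. Intervals are 95% and come from the same fit. DESeq2 1.42.0 and other filters, scalings and left-out libraries were alternatives, and the scripts were tested on simulated data. Shares of all genes called under an alternative are given only for the fit without SE+IL-4 replicate 4. The labels give a replicate number only. The study states 2 independent experiments with 6 biological replicates, and the labels do not say which library came from which experiment. The p-values measure the spread between libraries within a group and replicate set, and not the spread between the sets.

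The 40 genes and all lists were chosen with earlier results of these data known. Any of the 40 could be named. Values per library were given for Isg15, Irf7, Irf9, Stat2, Ddx58, Ifih1, Rsad2, Usp18, Ifit1, Mx2, Oasl1 and Zbp1, and in each contrast for at most 3 calls in either direction, those furthest from 0 among genes with a mean of at least 1 CPM. Ifi44l, Ifit2, Eif2ak2 and others follow from that rule, and other genes come from the lists. The values of 1 gene counted in the signalling list are not reported here.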

Additional observations from a re-analysis of the deposited data

Results flagged for a closer look

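Of 78 groups of 6 libraries, 8 had an extreme library whose gap to its nearest neighbour, as a share of the range of the group, was above 0.625, the 95% critical value for 6 libraries. Chance gives about 1 in 20. PBS replicate 6 of the IFNγ table stood high for Zbp1 (share 0.898, 2.95 CPM against 1.18 to 1.30) and Usp18 (0.626, 89.4 CPM against 54.4 to 65.5). SE+IL-4 replicate 4 stood high for Irf9 (0.729, 69.8 CPM against 44.2 to 50.1), Ifit1 (0.731, 9.09 CPM against 0.922 to 1.75), Usp18 (0.652, 157 CPM against 56.1 to 80.2) and the mean of the 40 genes (0.885, 5.23 against 3.83 to 3.99 on the log2 CPM scale). Ddx58 was low in replicate 1 of PBS (0.874, 46.7 CPM against 58.3 to 60.2) and of PE+IL-4 (0.761, 26.993 CPM against 39.7 to 44.9) in the IL-4 table. These groups join replicates 1-3 and 4-6, so a gap between the sets widens the range.

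A test of the difference between replicates 1-3 and 4-6 passed in the IFNγ table for 33 genes in SE against PBS, 6 in PE against PBS and 34 in SE against PE, and in the IL-4 table for 2 genes in SE against PBS. The causes were not tested, and in the IFNγ table the missing IFNγ response of the libraries labelled SE+IFNγ, replicates 4-6, goes with the first and the third of these counts.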

How the results depend on the processing

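For single genes, 584 of 641 values under alternatives other than joining the replicate sets stayed past the threshold with the same direction, 57 lost the call (24 of 531 in the IFNγ table, 33 of 110 in the IL-4 table) and none reversed. The cause of a change was not tested except where fewer libraries or more genes were used. Joining replicates 1-6 kept 20 of 62 calls, lost 34 and reversed 8, namely Irf7 (0.80), Oasl1 (0.35) and Oasl2 (1.70) in SE against PBS for replicates 4-6, Zbp1 (-0.86) in SE against PE for replicates 1-3, and Irf7 (0.56), Rsad2 (0.17), Ifit1 (0.048) and Oasl1 (0.10) in SE against PE for replicates 4-6. It left 1 call in each IFNγ contrast of SE.

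Counts of called genes in the IFNγ table were 23, 20 and 10 for SE against PBS, PE against PBS and SE against PE in replicates 1-3 and 4, 16 and 23 in replicates 4-6. With adjusted p alone, 13 passed in SE against PBS for replicates 4-6, 31 in PE against PBS and 20 in SE against PE for replicates 1-3. SE against PBS for replicates 4-6 gave 1 call when that set was fitted alone and 1 without PBS replicate 6, an alternative chosen after seeing the data. Leaving out each replicate gave 23 to 24, 18 to 20 and 7 to 11 in replicates 1-3 and 1 to 9, 14 to 17 and 21 to 23 in replicates 4-6, and 30 to 34, 2 to 10 and 27 to 33 for the set differences.

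In the IL-4 table, SE against PBS in replicates 1-3 (4 calls) gave 2 with RLE scaling, 7 with no low-count filter and 0 with sets joined, and 0 to 2 leaving out each replicate. PE against PBS in replicates 1-3 (3 calls) gave 13 with no filter, 6 with DESeq2, 8 with the set alone and 11 with sets joined, and 0 to 1 leaving out each replicate. In replicates 4-6 (6 calls) it gave 18, 8, 2 and 11 in that order, and 0 to 16. SE against PBS in replicates 4-6 (0 calls) gave 5 with no filter and 0 to 1 leaving out each replicate, and SE against PE there (0 calls) gave 28 with no filter and 11 with DESeq2. Set differences for SE against PBS (2) became 14 with no filter, 5 with DESeq2 and 0 to 5 leaving out each replicate, those for PE against PBS (0) became 1 with no filter and those for SE against PE (0) became 15. Without SE replicate 4, in part chosen after seeing the data, SE and PE against PBS gave 8 and 10 in replicates 1-3 and 1 and 15 in replicates 4-6, with 0 set differences.

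Replicate numbers were not treated as pairs. Deviations of libraries with the same number correlated at -0.13 to 0.13 in the IFNγ table, where 8 of 18 libraries correlated best with their own number, and at -0.11 to 0.40 in the IL-4 table (17 of 18). With a replicate block the IL-4 counts were 7 and 6 for SE and PE against PBS in replicates 1-3, 10 for PE in replicates 4-6 and 6 set differences for SE, and every other count stayed within 1.5 times.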

Other observations

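Further interferon-stimulated genes, from a list that holds none of the 40, moved in both directions under IFNγ. In SE+IFNγ replicates 1-3 13 of 34 tested rose, beside 11.0% of all genes, while 10.1% of all genes fell. Among those that rose were the DNA-binding protein Ifi205 (2.89 on the log2 scale), the helicase Ddx60 (1.91) and the nuclear body protein Sp110 (1.75), all by edgeR. Oas1c (-0.78), Trim14 (-0.73), an adaptor of Mavs, and Slfn5 (-1.08) fell. In the libraries labelled SE+IFNγ, replicates 4-6, none of the 34 tested rose and Isg20, an exonuclease, fell by 0.60 against PBS (edgeR). Of all genes, 0.736% rose and 1.09% fell there.

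Under IL-4, 29 of the 35 listed genes could be tested. Helz2, a helicase, fell by 0.70 with SE and by 0.66 with PE in replicates 1-3 and by 0.81 with PE in replicates 4-6, where the RNA helicase Mov10 fell by 1.05 and Epsti1 by 0.74. No other gene of that list was called in these contrasts.

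Replicates 1-3 of PBS, SE and PE all carry the same letters in both tables. The counts of PBS replicates 1-3 differed far beyond counting error between the tables (chi-square per degree of freedom 375 to 398), so these PBS libraries were treated as separate libraries.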
